A study of Hordeum vulgare with 64 samples.

Results

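Unstressed roots of TX9425 (TX), a barley variety tolerant to salt and waterlogging, were compared with unstressed roots of Naso Nijo (NN), a variety sensitive to both. The study sequenced mRNA of leaves and roots of both varieties in a salt experiment, sampled after 1 h, 24 h or 10 d of stress, and in a waterlogging experiment, sampled after 1 h, 72 h or 2 w. Each experiment had its own unstressed controls, labelled 0 hour, and its own expression table. The comparison rests on 8 of the 64 libraries, namely 2 TX and 2 NN control roots of the salt table and 2 TX and 2 NN control roots of the waterlogging table. All were seedlings at the three-leaf stage, and the 2 varieties shared a pot. The study's methods call its replicates biological, and the labels do not say whether the libraries of a group came from separate plants, so the p-values cover only how far these libraries vary. A gene was counted as different when it passed in the salt table and, with the same sign, in the waterlogging table. That held for 330 of the 21077 genes tested in both tables, out of 43050 rows.

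Roots are the organ that first meets salt in the soil solution and the lack of oxygen in flooded soil, and they control how much water and sodium reach the shoot. Barley is a diploid, self-pollinating crop, so a variety is close to a pure line, and 2 varieties can differ in gene sequence, in which gene copies they carry and in how a gene is regulated. A difference between varieties that is present before stress can belong to the variety or to its growth up to that point. With 2 libraries per group it can also come from the libraries sampled. The identifiers in the tables are those of an older barley annotation, and 0 of them could be paired with names in the gene table used here, so genes are described by identifier, level and place. In such identifiers the digit after HORVU gives the chromosome (0 for unplaced genes) and the last number gives the order along it. The values are FPKM, fragments of a gene per kilobase of its model, scaled to the mapped fragments of the library, and differences are TX minus NN on the log2(FPKM + 1) scale, which understates the change of low genes. Because all reads were mapped to 1 reference, low expression in a variety and a missing or diverged copy of the gene in it cannot be told apart, and near-identical copies can share reads.

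Genes particular to a variety or an organ in other libraries were used to check the labels. Of 18 genes seen in TX alone in the stressed roots of both tables, the TX control roots held 17 or 18 at 0.5 FPKM or more and the NN control roots held 0. Of 8 genes seen in NN alone, the TX control roots held 0 and the NN control roots 7 or 8. Genes confined to roots in the other table, 6 read in the salt table and 20 read in the waterlogging table, were present in the control roots, with 1 gene missing in 1 library. Relative sequencing depth, read from the steps between low values, was set against the first NN salt library, and absolute depth is unknown. In the salt table both TX control roots were shallower, at 0.79 and 0.637 (replicate 2), than the second NN one at 0.973. In the waterlogging table NN had 0.785 and 0.747, and TX had 0.737 and 1.01. One library stood apart from the other control roots of its table. TX control root replicate 2 of the salt table correlated at r = 0.866 with its own replicate across 22314 genes. It correlated at 0.913 and 0.774 with the TX roots after 10 d of salt, and at 0.885 and 0.882 with the NN ones. TX control root replicate 1 was closer to the NN control roots, at 0.917 and 0.928, than to its own replicate. Its best match was an NN root after 1 h of salt, at 0.938. The NN control roots of that table correlated with each other at r = 0.985, the TX control roots of the waterlogging table at 0.948 and the NN ones at 0.955.

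In the salt table, TX and NN control roots differed in 1159 of 22314 genes (5.19%), 532 higher in TX (2.38%) and 627 lower (2.81%), by limma. A call needed a p under 0.05 after Benjamini-Hochberg adjustment and a log2 difference beyond 1. The waterlogging table had 634 of 22022 (2.88%), 252 higher in TX (1.14%) and 382 lower (1.73%). Both tables together left 133 genes higher in TX and 197 lower. That is 1.57% of the genes tested in both tables, 0.631% in the higher and 0.935% in the lower direction. The spread of each gene was taken over all 16 root libraries of a table. With the 4 control root libraries of the salt table alone, limma called 0 genes, although 3508 had an unadjusted p under 0.05, and the two-table count was then 0, while the same fit of the waterlogging table gave 219.

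The counts leaned on single libraries, most of all in the salt table. Without TX control root replicate 2 the salt table gave 564 genes and without TX replicate 1 it gave 4194. It gave 382 without NN replicate 1 and 438 without NN replicate 2. The two-table count moved between 220 and 366 when any 1 of the 8 control libraries was left out. Its 133 genes higher in TX were 88 without NN replicate 1 and 86 without NN replicate 2 of the salt table. Without TX replicate 2 of the salt table, the library that stood apart, all 330 genes kept their sign in that table. The salt control libraries that remained had also chosen these genes, so nothing is read from the kept sign.

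The waterlogging table served as a second set of libraries for genes called in the salt table. Of 520 genes higher in TX in the salt table and tested in the other, 343 had the same sign there (66%) and 133 were called (25.6%). Of 599 genes lower in TX, 517 had the same sign (86.3%) and 197 were called (32.9%). In the reverse direction, 241 of 246 genes higher in TX in the waterlogging table had the same sign in the salt table (98%), and 348 of 381 lower ones (91.3%). Over all genes tested in both tables the sign was shared by 60.8%. When the salt table was fitted without TX replicate 2, the waterlogging table called 51.1% of its higher and 49.4% of its lower genes, whereas without TX replicate 1 it called 8.97% and 9.05%.

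**Figure D1:**
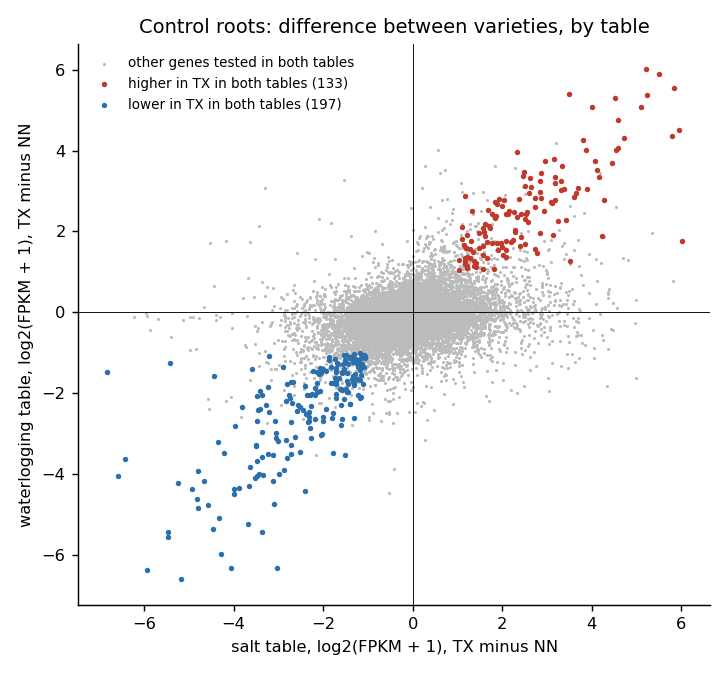
Each point is 1 gene tested in both tables, with its TX minus NN difference in control roots on the log2(FPKM + 1) scale in the salt table (x axis) and in the waterlogging table (y axis). The 133 genes higher in TX (red) and 197 lower in TX (blue) lie in the quadrants of shared sign because the rule asked for that. Many other genes with a large difference in the salt table lie near 0 in the waterlogging table. Over all genes tested in both tables, the differences correlated at r = 0.43.

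In most of these genes the level was near 0 in 1 variety. In the 133 genes higher in TX, the median gene averaged 6.95 FPKM over the TX control roots and 0.16 FPKM was the median of the NN averages. In the 197 genes lower in TX, the median TX average was 0.13 FPKM and the median NN average 6.08 FPKM. The middle of the size range, irrespective of sign, was 2.26 on the log2 scale in the salt table (1.03 to 6.83) and 2.19 in the waterlogging table (1.01 to 6.61). By level, 48 genes were seen in TX alone, with at least 0.5 FPKM in all 4 TX control roots and at most 0.1 FPKM in all 4 NN ones. A further 54 were seen in NN alone by the same levels. Over all genes tested in both tables, 64 (0.304%) were seen in TX alone and 80 (0.38%) in NN alone, and nothing is read from these shares because the rule used the same values. At the other end, 19 of the genes higher in TX and 27 of those lower in TX had at least 1 FPKM in all 8 libraries. These levels and sizes describe the genes that the rule picked and carry no test.

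At the edge of the rule, the gene inside with the smallest difference had -1.18 in the salt table and -1.01 in the waterlogging table, and the gene inside with the largest adjusted p reached 0.0493. The nearest gene outside by size had -0.99 and -1.28 with both adjusted p passed, and 60 genes shared that fate. The nearest gene outside by p had -4.58 and -2.16 with an adjusted p of 0.0505 in the waterlogging table, and 337 genes were beyond 1 in both tables with the same sign but missed the p in at least 1.

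Among genes higher in TX, HORVU7Hr1G114870 on chromosome 7H had the largest difference when each gene was ranked by its smaller change. It had 81.4 and 68.3 FPKM in the TX control roots of the salt table, against 0.608 and 0.0964 FPKM in the NN ones. In the waterlogging table it had 49.3 and 45.8 FPKM in TX, against 0.0596 and 0 FPKM in NN. The groups did not overlap in either table. The difference was 5.83 ± 0.54 (SE, limma adjusted p = 8.6e-05) in the salt table and 5.56 ± 0.20 (adjusted p = 5.7e-08) in the waterlogging table.

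HORVU0Hr1G027130, not placed on a chromosome, was the leading gene among those at 1 FPKM or more in all 8 libraries, and so was read in both varieties. It had 314.8 and 299.3 FPKM in TX, against 8.57 and 7.43 FPKM in NN, in the salt table. The waterlogging libraries had 317.7 and 455.7 FPKM in TX, against 7.26 and 14.4 FPKM in NN. The 4 TX libraries were all far above the 4 NN libraries, with differences of 5.10 ± 0.55 (limma adjusted p = 0.00028) and 5.08 ± 0.29 (adjusted p = 9e-07).

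On the other side, HORVU4Hr1G048990 on 4H led the genes lower in TX by the same ranking on the smaller change of the 2 tables. It had 0.703 and 0 FPKM in TX, against 82.4 and 75.2 FPKM in NN, in the salt table. The waterlogging table listed it at 0 in both TX libraries, against 67.5 and 98.3 FPKM in NN. It was thus read in 1 of the 4 TX control roots and at a high level in every NN one, with log2 differences of -5.93 ± 0.37 (limma adjusted p = 1.1e-05) and -6.37 ± 0.20 (adjusted p = 4.8e-08).

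HORVU1Hr1G068790 on 1H led the genes lower in TX that were read in all 8 libraries. It had 9.66 and 8.21 FPKM in TX, against 349.5 and 362.5 FPKM in NN, in the salt table. The waterlogging table had 2.73 and 5.34 FPKM in TX, against 456.7 and 489.2 FPKM in NN. The groups were far apart in both tables, and the gene was still detected in every TX library. The differences were -5.17 ± 0.33 (limma adjusted p = 1.5e-05) and -6.61 ± 0.28 (adjusted p = 1.4e-07).

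HvMADS14 (HORVU2Hr1G080490), a member of the MADS-box transcription factor family that the study is about, did not pass the test in either table. It had 2.68 and 1.19 FPKM in the TX control roots, against 2.61 and 2.08 FPKM in the NN ones, in the salt table. In the waterlogging table it had 2.94 and 3.82 FPKM in TX, against 2.46 and 2.84 FPKM in NN. The salt groups overlapped and the waterlogging groups did not. The differences were -0.23 ± 0.27 (limma adjusted p = 0.65) and 0.26 ± 0.23 (adjusted p = 0.79). The salt value had the other sign, 0.14, without TX replicate 2.

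**Figure D2:**
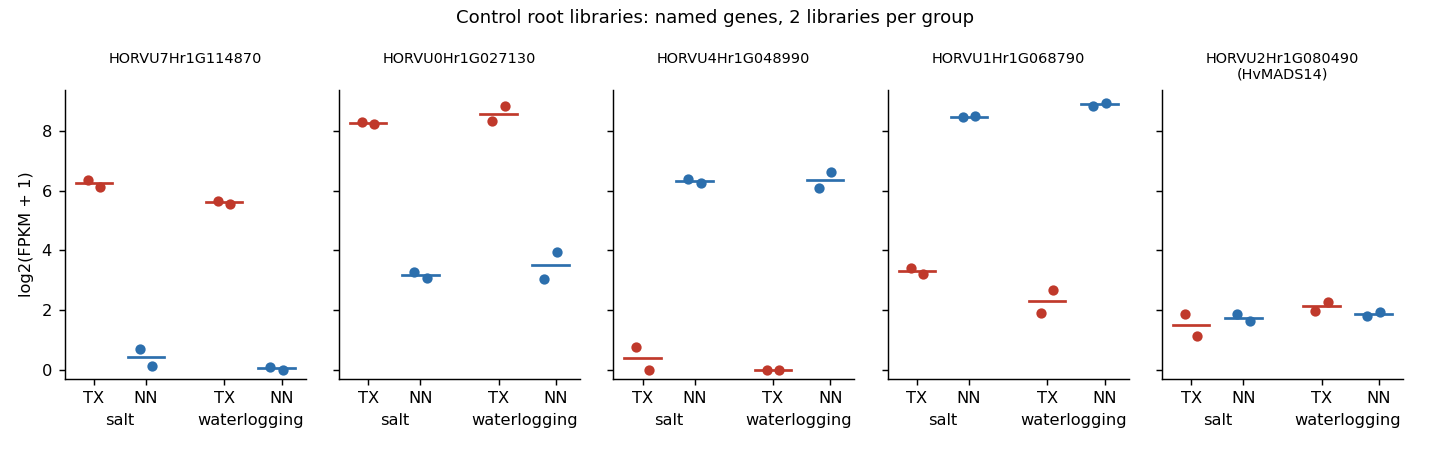
Points are single control root libraries and lines are group means, on the log2(FPKM + 1) scale, for 4 genes of the set and HvMADS14, with TX in red and NN in blue for the salt and the waterlogging table. The varieties are wide apart in the first 4 genes in both tables and close together in HvMADS14.

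The stressed roots gave 24 libraries that the rule did not use, although they share each gene's estimated spread with the control comparison. All 330 genes were tested there. Under salt, the genes higher in TX were called again, in the same direction, in 98 of 133 at 1 h, 103 at 24 h and 98 at 10 d, against 0.757%, 0.869% and 1.16% of all genes tested. The genes lower in TX were called again in 146 of 197 at 1 h, 156 at 24 h and 127 at 10 d, against 0.896%, 1.12% and 1.42%. Under waterlogging, the genes higher in TX were called in 111 at 1 h, 109 at 72 h and 109 at 2 w, against 1.09%, 1.77% and 1.14%. The genes lower in TX were called in 151, 154 and 140 at the same times, against 1.24%, 1.53% and 1.28%. At all 6 times, 0 genes of the set were called in the opposite direction by limma, and 1 gene had an opposite sign at an unadjusted p under 0.05, at 72 h of waterlogging.

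Counted per gene, 165 of the 330 (50%) were called at all 6 stressed times, against 171 of all 21077 genes (0.811%), and 19 (5.76%) at none, against 93.8% of all genes. The sign was the same at all 6 times in 309 of the set and in 10.2% of all genes. The median difference of the genes higher in TX was between 2.03 and 2.35 over the 6 times, and that of the genes lower in TX between -2.04 and -1.64, while the median of all genes tested lay between -0.14 and 0.12. In the control roots, which chose the genes, these medians were 2.38 and 2.42 for the higher and -2.14 and -2.05 for the lower genes. Leaving out 1 library of the time in question, with the set formed anew, moved some of these counts by more than 1.5 times under salt. The 146 lower genes at 1 h were 84 without TX replicate 1, and the total of 244 (1.65% of all genes tested were called) was then 150. The 103 higher genes at 24 h were 62 without NN replicate 1 and 65 without NN replicate 2, and the total of 259 (1.99%) was 172 without NN replicate 1. The 127 lower genes at 10 d were 82 without NN replicate 2.

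The 4 leading genes followed the same pattern. HORVU7Hr1G114870 ranged from 23.3 to 80.3 FPKM (median 49.3) in the 6 salt-stressed TX roots, against 0 to 2.09 FPKM (median 0.131) in the NN ones. Under waterlogging it had 9.95 to 40.2 FPKM in TX and was listed at 0 in all 6 NN roots. The variety difference thus held while the level in TX varied over a wide range. HORVU0Hr1G027130 had 268.5 to 538.2 FPKM in the salt-stressed TX roots, against 5.29 to 39.9 FPKM in the NN ones. In waterlogged roots it had 221.2 to 410.8 FPKM in TX, against 3.28 to 6.01 FPKM in NN. The highest salt-stressed NN values of these 2 genes were both in replicate 2 after 10 d. HORVU1Hr1G068790 had 1.41 to 4.98 FPKM in the waterlogged TX roots, against 265.0 to 523.5 FPKM in the NN ones. With salt it had 5.93 to 26.8 FPKM in TX, against 257.7 to 371.3 FPKM in NN. HORVU4Hr1G048990 had 0 to 3.69 FPKM in the salt-stressed TX roots, against 39.8 to 114.6 FPKM in the NN ones. Its waterlogged roots had 0 to 0.199 FPKM in TX, against 22.1 to 65.9 FPKM in NN.

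Control leaves of the same experiments gave a second organ. Of the 133 genes higher in TX in roots, 96 were also called higher in TX leaves of the salt table (background 5.24%), and 111 of the 197 lower ones were called lower (background 3.83%). The counts in the waterlogging table were 58 (background 0.571%) and 70 (background 0.533%). The 70 were 45 without TX control leaf replicate 1 and 44 without TX control leaf replicate 2 of that table. A gene that reached 0.5 FPKM in fewer than 2 leaf libraries was not tested, which took out 43 of the 330 in the salt table and 38 in the waterlogging table, 33 of them in both. In all, 213 genes (64.5%) were called in the same direction in the leaves of at least 1 table, against 7.6% of all genes in either direction. A total of 122 (37%) were called in both tables, against 0.773% of all genes, and 91 (27.6%) were called at all 6 stressed times and in control leaves of both tables, against 0.441% of all genes.

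**Figure D3:**
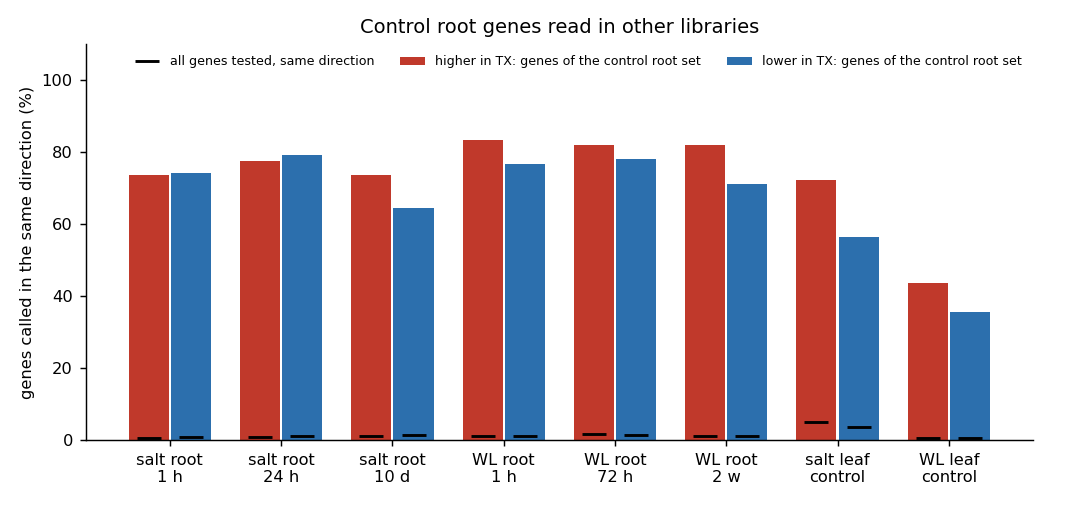
Bars give the percentage of the 133 genes higher in TX (red) and of the 197 lower in TX (blue) that were called again in the same direction in stressed roots and in control leaves (WL, waterlogging). The black ticks near the base give the percentage of all genes tested that were called in that direction, which did not exceed 5.24%.

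HORVU4Hr1G048990 was one of those seen in both organs. Control leaves had 0.137 and 0 FPKM in TX, against 210.0 and 186.4 FPKM in NN, in the salt table, and TX was listed at 0 against 169.4 and 148.7 FPKM in NN in the waterlogging table. HORVU0Hr1G027130 had 197.7 and 263.1 FPKM in TX leaves, against 4.60 and 5.16 FPKM in NN leaves, of the salt table. HORVU7Hr1G114870 was different. Its control leaves had 0.371 and 0.456 FPKM in TX and were listed at 0 in NN in the salt table, so the large difference of the roots was not seen there. HvMADS14 was at most 0.0099 FPKM in any control leaf.

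Whether a variety difference itself differed between organs was tested with all 32 libraries of a table. It did in both tables for 90 of 23146 genes (0.389%), of which 40 were more positive in roots (0.173%) and 50 more negative (0.216%). Of the 90, 43 were in the set of 330, which was chosen on the same root values, so that nothing is read from this overlap. In 36 genes, all of the set, the difference was beyond 1 in the roots of both tables and within 1 in the leaves of both, and in 30 of these all leaf means were under 0.5 FPKM. In another 36, none of the set, it was beyond 1 in the leaves and within 1 in the roots. In 1 gene outside the set, HORVU3Hr1G111150, it was beyond 1 in opposite directions in the 2 organs, in both tables. Its mean root levels were 11.4 FPKM in TX and 39.3 FPKM in NN in the salt table. Its mean leaf levels there were 1.74 FPKM in TX and 0 FPKM in NN. The root difference of HORVU7Hr1G114870 exceeded its leaf difference by 5.33 in the salt table and 5.37 in the waterlogging table, given as a description because the gene was chosen for its root difference.

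A single gene of the set was called in the opposite direction in leaves, HORVU3Hr1G112110 on 3H, named here after its values were seen. Control roots had 3.02 and 4.90 FPKM in TX, against 0.458 and 0.378 FPKM in NN, in the salt table, and 2.73 and 12.03 FPKM in TX, against 0.234 and 0.367 FPKM in NN, in the waterlogging table. Control leaves of the salt table were listed at 0 in both TX libraries, against 0.485 and 1.75 FPKM in NN. The variety with more reads was thus TX in roots and NN in leaves, at low levels. The leaf difference was -1.02 (limma adjusted p = 0.042), and the root difference exceeded it by 2.80. In the waterlogging table the leaf difference was -0.57 and was not called (limma adjusted p = 1), and the root difference exceeded it by 3.0. The differences between organs are a description, since the root values chose the gene.

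The genes seen in 1 variety alone could be followed library by library. Of the 48 seen in TX alone in control roots, the 12 stressed TX roots held 45 to 48 at 0.5 FPKM or more. The stressed NN roots held 0, except replicate 2 of NN after 10 d of salt, which held 9. Of the 54 seen in NN alone, the stressed TX roots held 0 to 8 and the stressed NN roots 47 to 54. The TX roots with the most were replicates 1 and 2 after 10 d of salt, with 8 and 4. In control leaves, TX held 42 or 43 of the 48 and NN held 1, and for the 54 genes TX held 1 or 2 and NN 38 to 43. The 10 d libraries with reads of the other variety's genes are those in which the count of genes called again was lowest under salt, 225 (2.57% of all genes tested were called). Leaving out 1 of the 10 d libraries also formed the set anew at another size, so such counts cannot be set against the 225. The part of the other variety's reads in the count of 225 was not tested.

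**Figure D4:**
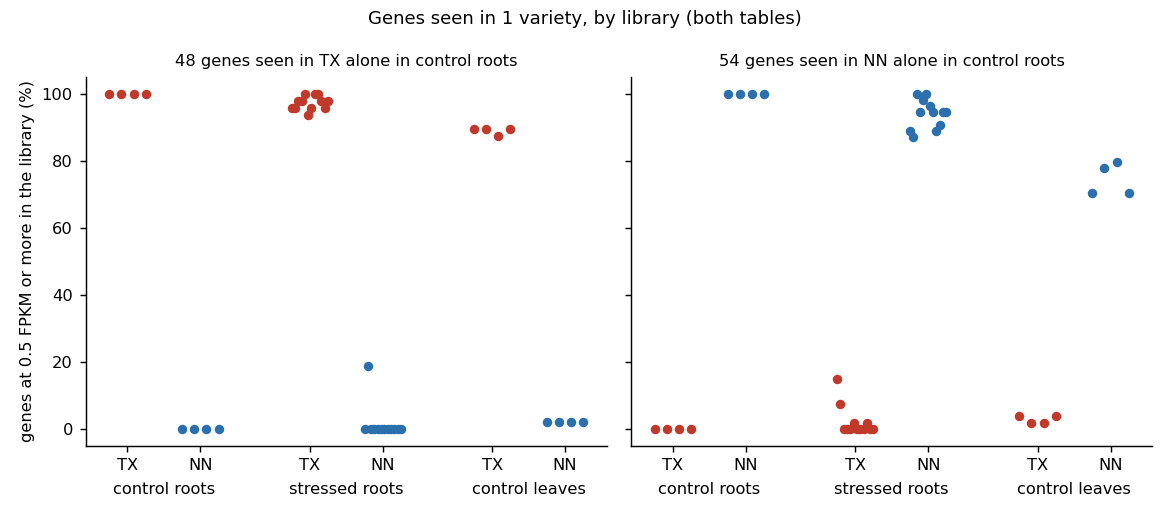
Each point is 1 library, with the percentage of the 48 genes seen in TX alone in control roots (left) or of the 54 seen in NN alone (right) that reached 0.5 FPKM. Control roots are at 0 or 100 because they chose the genes. Stressed roots and control leaves were not compared to choose them, but stressed roots entered each gene's filter and estimated spread. The library of the other variety with the highest share in stressed roots held 9 of 48 genes (left) and 8 of 54 (right).

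By place, the 330 genes were spread over all 7 chromosomes and unevenly. Chromosome 3H had 65 of its 3113 tested genes in the set (2.09%), 5H 64 of 3198 (2%), 7H 57 of 2975 (1.92%) and 1H 45 of 2576 (1.75%). The lowest shares were on 2H with 22 of 3383 (0.65%), 6H with 19 of 2229 (0.852%) and 4H with 30 of 2459 (1.22%). Genes not placed on a chromosome had the highest share, 25 of 754 (3.32%), and 17 of the 25 were higher in TX. On 1H, 14 genes were higher and 31 lower in TX. The remaining 3 genes of the set had identifiers of non-coding RNA entries (ENSRNA). No test was made on place, since neighbouring genes are not independent.

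Genes of the set lay near each other. Of the 302 on placed chromosomes, 112 (37.1%) had another within 5 tested genes to either side, whereas 2332 of the 19631 placed genes outside the set (11.9%) had a gene of the set that near. Of 32 pairs that were direct neighbours, 29 moved in the same direction and 3 in opposite directions. There were 12 runs of 3 or more genes, each within 5 tested genes of the next, holding 42 genes, and 7 of the runs went in 1 direction while 5 were mixed. Because near-identical copies often lie side by side and can share reads, the genes of a run are not independent of each other.

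The longest run held 7 genes among 8 consecutive tested genes on 1H, all lower in TX, and HORVU1Hr1G068790 is the seventh of the 8. The summed level of the 7 genes was 6.11 to 14.7 FPKM in the 4 TX control roots, against 445.2 to 600.8 FPKM in the 4 NN ones. Stressed roots entered each gene's filter and estimated spread, but not the comparison that chose the genes. There the sum was 3.85 to 31.5 FPKM in 12 TX libraries, against 357.6 to 586.0 FPKM in 12 NN ones. It was 1.92 to 6.95 FPKM in 4 TX control leaves, against 183.5 to 252.8 FPKM in 4 NN control leaves. HORVU1Hr1G068790 made up most of these sums in the NN libraries, but not in every TX library. In the TX control roots of the waterlogging table it had 2.73 of 6.11 FPKM and 5.34 of 10.9 FPKM. The other 6 genes summed to 0.882 to 2.66 FPKM in the TX control leaves, against 21.9 to 66.9 FPKM in the NN ones, where single genes were as low as 0.0821 FPKM. In control leaves 5 of the 7 genes were called lower in TX in the salt table and 1, HORVU1Hr1G068790, in the waterlogging table. The first gene of the run had 3.70 and 1.47 FPKM in TX, against 73.9 and 118.9 FPKM in NN, in the salt table, and the third was listed at 0 in all 4 TX control roots, against 1.46 to 3.32 FPKM in NN. The fifth gene, which was not in the set, was also low in TX, at most 0.0899 FPKM, against 0.495 to 1.73 FPKM in NN.

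**Figure D5:**
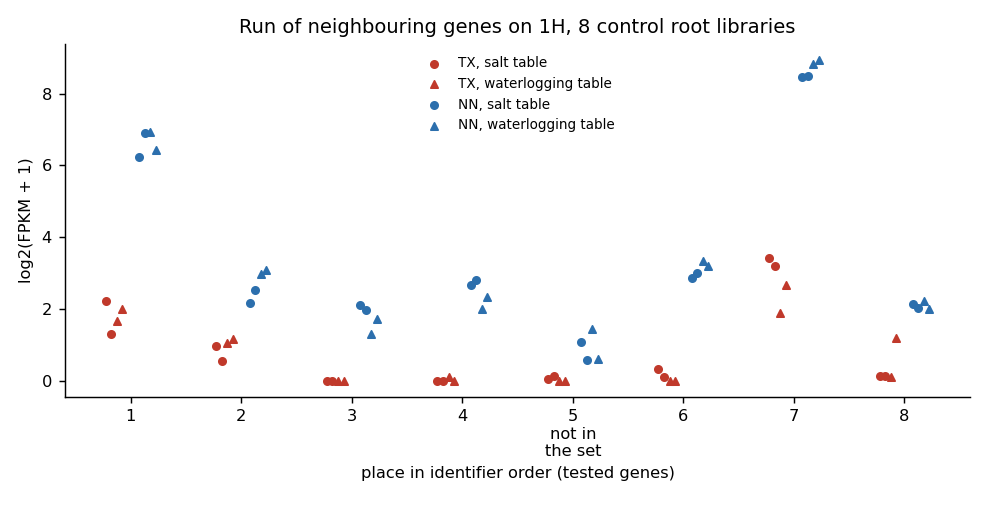
Levels of 8 consecutive tested genes on 1H in the 8 control root libraries, on the log2(FPKM + 1) scale, with TX in red, NN in blue, the salt table as circles and the waterlogging table as triangles. NN is above TX at all 8 places, and the seventh, HORVU1Hr1G068790, is the most abundant.

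A few genes went against the rule altogether. In 3 genes, named after their values were seen, control roots were called higher in TX in the salt table and lower in TX in the waterlogging table. HORVU7Hr1G088350 had 21.5 and 19.2 FPKM in TX, against 1.73 and 3.44 FPKM in NN, in the salt table, and 3.20 and 2.60 FPKM in TX, against 9.03 and 9.74 FPKM in NN, in the waterlogging table. HORVU1Hr1G037550 had 38.7 and 26.6 FPKM in TX, against 9.17 and 5.57 FPKM in NN, and then 7.07 and 2.37 FPKM in TX, against 22.2 and 11.1 FPKM in NN. HORVU1Hr1G083580 had 5.87 and 3.48 FPKM in TX, against 0.134 and 0.276 FPKM in NN, and then 4.36 and 0.595 FPKM in TX, against 14.1 and 7.07 FPKM in NN. In these genes the groups were apart in each table, in opposite order. Both TX control libraries of the salt table were above both NN ones.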

How the data were processed

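The authors deposited FPKM values per gene in 1 table per experiment, after work with HISAT2 and featureCounts 1.5.0 (HISAT is listed too), as credited to the submitters' processing notes. Strand-specific, poly(A)-selected libraries were made. Which genome build was used, and whether counting used the strand, are not stated in the labels or the study's methods. The study's methods speak of replicates in larger number than the 2 per group in the labels. The other waterlogging sheets, 82 columns of values, were not used. Each table was fitted apart with limma 3.58.1 in R 4.3.3 on log2(FPKM + 1), as 8 group means over 16 root libraries with a trended spread. Genes needed 0.5 FPKM or more in 2 libraries. Calls needed a Benjamini-Hochberg adjusted p under 0.05 over all genes tested and a log2 difference beyond 1. Summaries and plots used Python 3.11.15, pandas 2.3.3, numpy 2.4.6 and matplotlib 3.10.9. Genes named are, in each direction, the 1 with the largest smaller change of both tables and the 1 with the largest among those at 1 FPKM or more in all 8 control roots, plus HvMADS14, the name of which the study pairs with its identifier. The comparison, gene groups and levels were chosen with earlier results of these data known. The fits were tested on simulated data. The alternatives were another pseudocount, no filter, median-ratio scaling, a replicate block, control libraries alone, p alone, HORVU rows alone and leaving out libraries.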

Additional observations from a re-analysis of the deposited data

Results flagged for a closer look

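In 90 genes the difference between TX and NN differed between control roots and control leaves in both tables, by the test of the difference itself. For HORVU7Hr1G114870 that difference of differences was 5.33 in the salt and 5.37 in the waterlogging table, and for HORVU3Hr1G112110, which had more reads in TX roots and in NN leaves, it was 2.80 and 3.0. Both genes were picked with their root values in view, so these values are a description. A further 3 genes were called in opposite directions in the control roots of the 2 tables. That contrast between tables was not tested, because the tables are treated as normalized apart.
Outside the comparisons, NN leaf replicate 1 after 1 h of salt held 25 of the 48 genes seen in TX alone in control roots at 0.5 FPKM or more, while every other NN leaf library held 1. It enters the spread of the salt leaf fit, and its part in the leaf counts was not tested.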

How the results depend on the processing

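The 4 named genes of the set kept their sign in all 64 values computed for them under the alternatives. They were picked for their large differences in the same control root values, so nothing is read from this about the other genes. Of the other 193 values, which cover the gene counts and HvMADS14, 183 were taken as unchanged. For a count that meant within 1.5 times, and for HvMADS14 the same sign and still no call. With the 4 control root libraries alone, limma called 0 genes in the salt table (3508 at an unadjusted p under 0.05), 219 in the waterlogging table (1565 at an unadjusted p under 0.05) and so 0 in both. That fit has fewer libraries behind each gene's spread than the main fit, in both tables alike. The TX control roots of the salt table correlated with each other at r = 0.866, and the NN ones at 0.985. In the waterlogging table the values were 0.948 for TX and 0.955 for NN. Why the salt table gave 0 was not tested. Leaving out 1 control root library gave 382 to 4194 genes in the salt table, 596 to 726 in the waterlogging table and 220 to 366 in both. For the set in stressed roots, leaving out 1 library gave 150 to 243 genes at 1 h, 172 to 271 at 24 h and 159 to 245 at 10 d of salt. HvMADS14 ranged from -0.61 to 0.14 in the salt table, the 0.14 being without TX control root replicate 2, and was never called. The cause was not tested. The two-table count was 430 with a pseudocount of 0.1, 300 with no filter, 328 with median-ratio scaling and 390 by adjusted p alone. Median-ratio scaling shifted the difference of all genes by 0.16 in the salt and 0.10 in the waterlogging table (log2).

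Replicate numbers are shared by the groups, and the deviations of TX and NN control roots correlated at r = -0.10 in the salt and 0.39 in the waterlogging table. The main fits did not take them as pairs, although the waterlogging value was the highest of its 28 pairs of root groups. A replicate block gave 1333 genes in the salt table, 629 in the waterlogging table and 339 in both. With the pairing crossed in the salt control roots, an alternative chosen after seeing the data, these were 1085 in the salt table and 324 in both. Absolute depth is unknown, which limits what can be said of genes at or near 0.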
